A study of Mus musculus with 12 samples.

Results

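Matrix metalloproteinases (Mmp genes), the membrane-bound disintegrin metalloproteinases (Adam genes), their secreted relatives with thrombospondin repeats (Adamts genes) and the tissue inhibitors of metalloproteinases (Timp genes) were followed in mouse brain during experimental cerebral malaria (ECM) and its treatment. Members were taken by symbol from the deposited gene counts, where 79 symbols begin with Mmp, Adam or Adamts and a number or are Timp1 to Timp4. Of these, 54 averaged at least 0.2 CPM (counts scaled to library size) over the libraries and are the members described here, out of 21933 genes with a usable name. They are 13 of 23 Mmp genes, 18 of 33 Adam genes, all 19 Adamts genes and all 4 Timp genes. Adam4 lay just inside the minimum at 0.202 CPM and Adam3 just outside it at 0.179 CPM, and 12 of the 25 genes left out had no read in any library.

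In each of 3 groups 4 libraries were sequenced, all from brains of wild type C57BL/6 mice aged 6 weeks in a pathogen-free barrier facility. The treated ECM group had the disease and received artesunate, an antimalarial drug, for 4 days, the ECM group had the disease without artesunate, and the control group was normal. The labels do not give the parasite strain, the dose, the sex, or the day of infection on which brains were taken. They do not say that libraries came from separate animals, so p-values measure the spread between libraries. Comparisons ran in one edgeR quasi-likelihood model over 14600 genes, and a gene was called at a Benjamini-Hochberg adjusted p below 0.05 over all of them.

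Mmps are zinc enzymes that cut collagens, laminins and other matrix proteins, and several also process cytokines and tight junction proteins. Adams shed the outer parts of membrane proteins such as tumour necrosis factor and its receptors, while Adamts enzymes cut the chondroitin sulphate proteoglycans of brain matrix or, for Adamts13, von Willebrand factor in blood. Timps bind the active site of these enzymes. In brain the balance between them is studied for its part in blood-brain barrier opening, leukocyte entry and the remodelling of the perineuronal matrix.

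Promoters of 6 genes are shown because their transcripts were higher in ECM than in control brains, 5 of them by the test and Mmp3 by its reads alone, which was added after its values were seen. Each runs from 250 bases before the annotated start to 50 bases after it, on the gene's own strand, from RefSeq on GRCm38.p6. Capitals mark matches on either strand to the AP-1 motif TGANTCA or to TATAAA, the core of a TATA box. The TATA motif was added after the sequences had been read, and the 2 motifs do not overlap in these sequences. The response element of interferon-stimulated genes (ISRE, core GAAANN followed by GAAA) matched in none of the 6.
Adamts1 (chr16:85803064-85803363, minus strand): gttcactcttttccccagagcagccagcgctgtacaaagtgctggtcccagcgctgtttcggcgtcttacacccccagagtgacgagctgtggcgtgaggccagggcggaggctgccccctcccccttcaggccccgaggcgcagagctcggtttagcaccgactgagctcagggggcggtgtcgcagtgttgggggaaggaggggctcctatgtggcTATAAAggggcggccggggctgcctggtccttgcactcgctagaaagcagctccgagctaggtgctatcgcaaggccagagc
Adamts9 (chr6:92943485-92943784, minus strand): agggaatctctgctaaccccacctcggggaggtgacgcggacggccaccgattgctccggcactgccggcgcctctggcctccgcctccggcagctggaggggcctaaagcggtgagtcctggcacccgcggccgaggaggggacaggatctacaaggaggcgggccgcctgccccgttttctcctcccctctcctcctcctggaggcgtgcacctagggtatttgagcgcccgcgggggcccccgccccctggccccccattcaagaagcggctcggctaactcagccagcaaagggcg
Timp1 (chrX:20869916-20870215, plus strand): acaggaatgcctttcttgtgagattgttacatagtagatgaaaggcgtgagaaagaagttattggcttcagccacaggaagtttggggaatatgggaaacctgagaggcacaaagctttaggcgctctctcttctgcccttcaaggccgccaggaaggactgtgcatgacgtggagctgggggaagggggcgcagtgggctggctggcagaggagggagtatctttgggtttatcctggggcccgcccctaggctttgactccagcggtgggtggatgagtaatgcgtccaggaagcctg
Mmp8 (chr9:7558179-7558478, plus strand): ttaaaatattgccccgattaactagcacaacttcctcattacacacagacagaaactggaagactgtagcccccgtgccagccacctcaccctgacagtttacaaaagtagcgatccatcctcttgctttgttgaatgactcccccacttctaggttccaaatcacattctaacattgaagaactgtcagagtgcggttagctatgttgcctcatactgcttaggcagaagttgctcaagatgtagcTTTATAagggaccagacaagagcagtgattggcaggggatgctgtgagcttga
Adam8 (chr7:139992513-139992812, minus strand): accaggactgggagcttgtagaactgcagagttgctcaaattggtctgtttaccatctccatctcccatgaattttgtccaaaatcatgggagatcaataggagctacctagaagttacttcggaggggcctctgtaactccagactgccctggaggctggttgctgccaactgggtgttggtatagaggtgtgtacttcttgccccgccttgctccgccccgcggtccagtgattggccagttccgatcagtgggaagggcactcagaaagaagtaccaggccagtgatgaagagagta
Mmp3 (chr9:7445572-7445871, plus strand): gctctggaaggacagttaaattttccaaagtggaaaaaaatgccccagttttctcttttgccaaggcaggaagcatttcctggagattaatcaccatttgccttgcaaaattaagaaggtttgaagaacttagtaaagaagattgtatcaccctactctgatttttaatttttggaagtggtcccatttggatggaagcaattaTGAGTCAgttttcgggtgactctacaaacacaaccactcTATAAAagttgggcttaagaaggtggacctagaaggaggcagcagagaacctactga
The AP-1 letters were in the Mmp3 promoter at position -46, counted from 0 at the annotated start, and in none of the other promoters shown. Among the 31 members found in the RefSeq table, with 34 promoters, the AP-1 letters were in 2.94%, which was Adam19 alone, against 7.81% of 32851 promoters of all genes. TATAAA was in 5.88% of the members' promoters, against 13.6% of all. These were Adamts1, at position -32, and Mmp8, at -3 and on the opposite strand, where it reads TTTATA. Mmp3, which is not a member, had TATAAA at -7. The interferon motif was in 0 of the members' promoters and in 3.44% of all. Letters in these windows show neither binding nor its absence.

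Libraries held 12767654 to 18063035 reads in genes with names shorter than 8 characters, from which library sizes were taken. Levels of neuron markers were high in every library, with sums of 5089 to 5867 CPM in treated ECM, 5469 to 7227 CPM in ECM and 4970 to 8037 CPM in control brains. Cerebellum markers varied widely inside each group, at 213 to 1625 CPM in treated ECM, 53.7 to 2983 CPM in ECM and 180.3 to 1749 CPM in control brains. ECM 2, ECM 3 and control 4 stood apart from the other libraries. Their mitochondrial genes took 15.8%, 13.7% and 11.2% of reads, against 4.96 to 8.24% in the other 9 libraries, and their levels ran lower in genes of high GC content. Among the members, control 4 deviated most from its group, with a median absolute deviation of 0.48 on the log2 scale and 7 members more than 2-fold below the mean of the group on the log2 scale. Its rank correlation between deviation and GC content across the 54 members was -0.76, a description across genes that share this library. Counts of calls are therefore given with and without these 3 libraries. Leaving them out keeps ECM 1 and ECM 4 in the ECM group and control 1, 2 and 3 in the control group. The adjusted p-values of that setting thus rest on few libraries. ECM 4 itself had a rank correlation of 0.73 between deviation and GC content across the members.

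**Figure D1:**
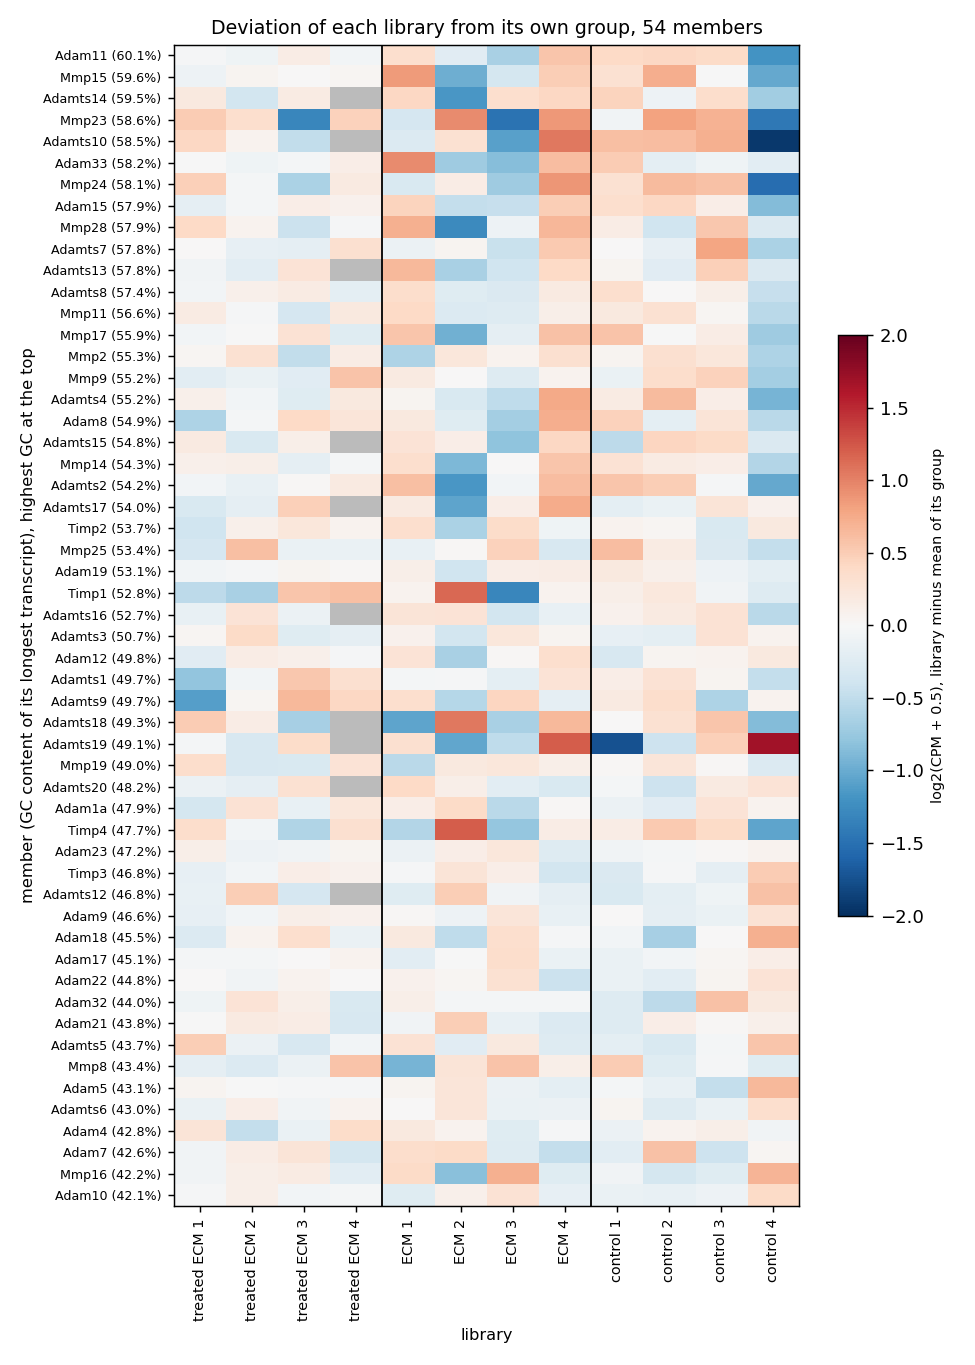
Deviation of each library (columns) from the mean of its own group in log2(CPM + 0.5), for the 54 members (rows) ordered by the GC content of their longest transcript. Grey cells are treated ECM 4 for genes with displaced values. In control 4 and ECM 3 the members of high GC content lay mostly below their groups, and in ECM 4 they lay mostly above.

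Before any comparison, members differed in level by over 3 orders of magnitude. Per kilobase of exon, Timp2 was highest of all, at 99.1 ± 17.1 CPM per kilobase in treated ECM, 108 ± 32.1 in ECM and 100.3 ± 13.8 in control brains (SD, n = 4 each). Adam10, the main alpha-secretase of neurons, had 21.3 ± 1.17, 21.1 ± 3.63 and 24.6 ± 4.78 CPM per kilobase in treated ECM, ECM and control brains. In control brains it was followed by Adam11 at 24.1 ± 9.71, Timp3 at 23.0 ± 6.07, Adam22 at 22.4 ± 3.41, Mmp17 at 19.5 ± 6.71, Adam9 at 18.7 ± 2.90 and Mmp24 at 16.7 ± 8.11 CPM per kilobase. These neighbours in the order did not differ beyond their spread. Adam11, Adam22 and Adam23 lack a working protease site and act as adhesion proteins and as receptors of the Lgi proteins at synapses. The gelatinases stood much lower, with Mmp9 at 0.50 ± 0.19, 0.76 ± 0.11 and 0.50 ± 0.21 and Mmp2 at 0.91 ± 0.23, 0.60 ± 0.19 and 0.96 ± 0.29 CPM per kilobase in treated ECM, ECM and control brains. At the low end of control brains were Adam4 at 0.041 ± 0.018 and Mmp8 at 0.042 ± 0.065 CPM per kilobase. In ECM brains Mmp8 stood at 1.28 ± 0.56 CPM per kilobase, and Adamts1 stood at 23.8 ± 3.31 CPM per kilobase in ECM against 3.10 ± 0.66 in control brains.

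**Figure D2:**
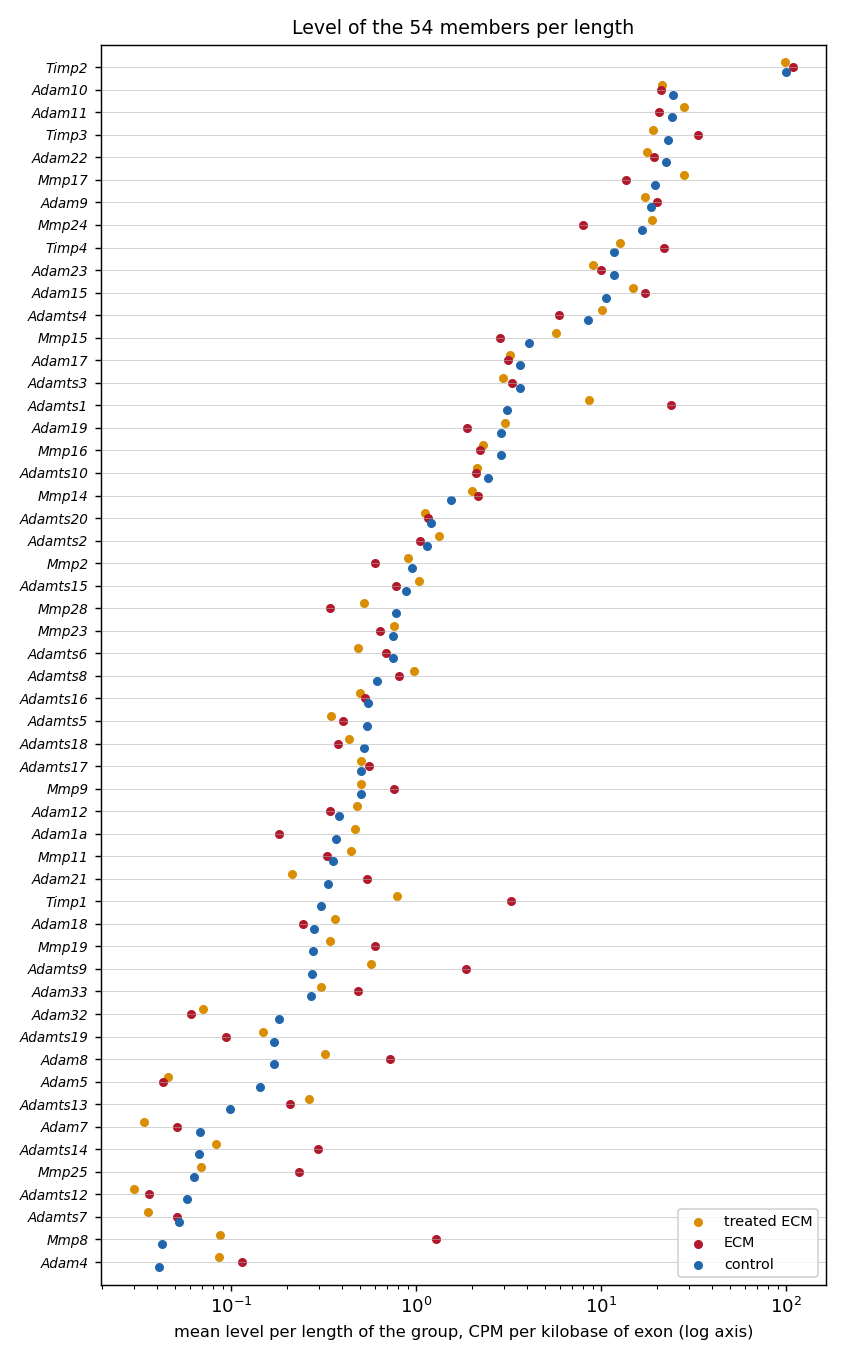
Mean level of each of the 54 members per kilobase of exon (log axis) in treated ECM, ECM and control brains, in the order of the control level. Most members have their 3 points close together, and the widest gaps belong to Adamts1, Adamts9, Timp1 and Mmp8, with the ECM point to the right.

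In ECM against control brains, 5 of the 48 tested members were called higher, namely Adamts1, Adamts9, Mmp8, Timp1 and Adam8, and 1 was called lower, Adam19. That is 10.4% of tested members higher, against 7.1% of all genes, and 2.08% lower, against 3.14% of all genes. The count of higher members thus stood not far above that of genes at large, and the median log2 fold change of the tested members was -0.12, against -0.02 over all genes. Of the tested members, 2 (Mmp8 and Adamts14) passed the filter on low counts through ECM libraries alone, so that a difference was built into their being tested. Timp1 reached the level of the filter in 3 ECM, 2 treated ECM and 0 control libraries, and Mmp25 in 4, 1 and 1. Both needed their ECM libraries to pass, so this limit holds in part for them too. Without control 4, ECM 2 and ECM 3, the ECM group held ECM 1 and ECM 4 alone. The calls were then 11 higher, adding Adam15, Mmp14, Adamts14, Adam33, Timp3 and Adamts13, and 4 lower, adding Adam23, Adam17 and Adam10. More of all genes were called in this setting too, so that the shares were 22.9% of tested members higher, against 10.3% of all genes, and 8.33% lower, against 8.2% of all genes. DESeq2 called Adamts14, Mmp19 and Mmp25 higher and Adam1a lower beside the 6 members that edgeR called. Over all genes DESeq2 called 1401 higher and 670 lower, where edgeR called 1036 and 459. The 42 members not called ran from -1.15 for Mmp28 to 2.08 for Adamts14 in log2 fold change, and 8 of them had an unadjusted p below 0.05.

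In treated ECM against ECM brains, 2 members were called higher, Adam1a and Adam19, and 5 lower, Adamts1, Mmp8, Adamts9, Timp3 and Adam21. These are 4.17% of tested members higher, against 3.17% of all genes, and 10.4% lower, against 5.19% of all genes. The median log2 fold change of the tested members was -0.07, against 0.00 over all genes. Without the 3 libraries, Mmp17 joined the higher ones, for 3 in all, while 10 were lower, with Adam15, Adamts14, Adam33, Adam8, Mmp14 and Timp1 added and Adam21 lost. These were 6.25% of tested members higher, against 7.01% of all genes in the same setting, and 20.8% lower, against 8.32% of all genes. DESeq2 called Mmp17 and Mmp24 higher and Timp1 lower beside the 7 members that edgeR called. Over all genes DESeq2 called 800 higher and 1348 lower, where edgeR called 463 and 758. In treated ECM against control brains, Adamts1 alone was called higher, 2.08% of tested members against 1.98% of all genes. None was called lower by edgeR, against 0.0548% of all genes; 3 members were lower at an unadjusted p below 0.05, DESeq2 also called 0 lower, and Adam23 was called lower without the 3 libraries, where 0.344% of all genes were. Without them Adamts1 was again the one called higher, against 2.83% of all genes. The median over tested members was 0.09, against 0.00 over all genes. The comparisons share the ECM or the control libraries, so the values of each are set side by side below and not counted as separate evidence.

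**Figure D3:**
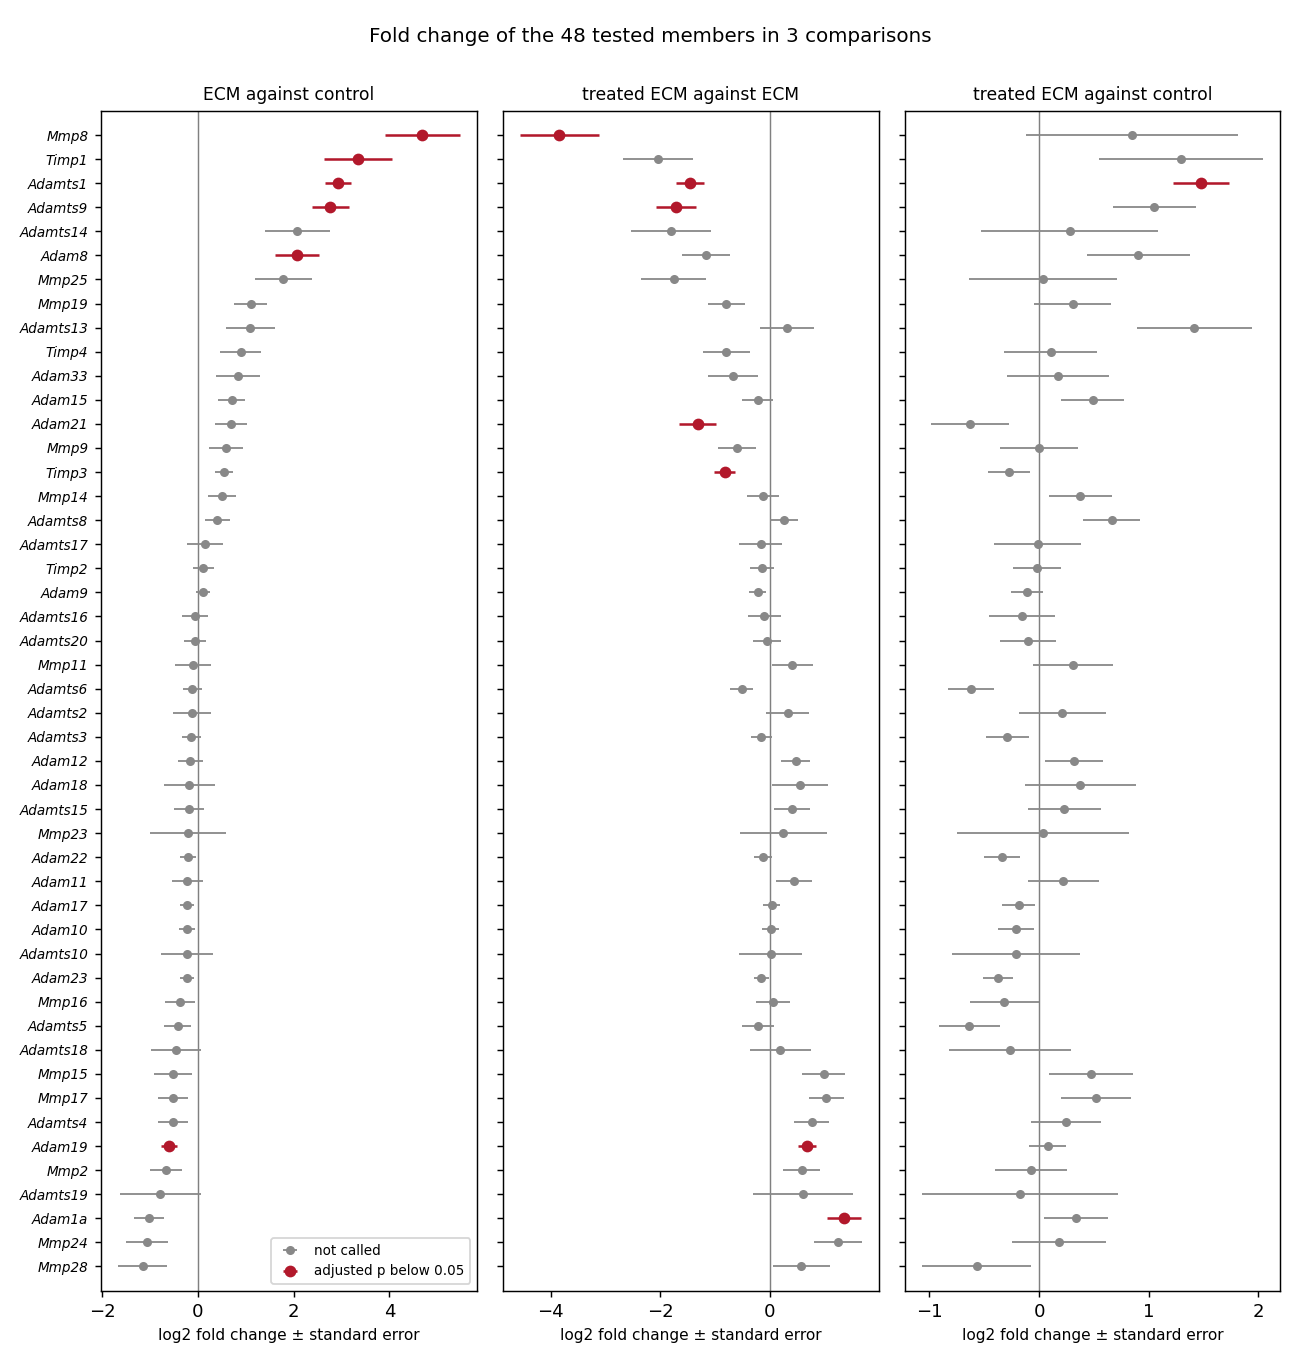
Log2 fold change ± standard error of the 48 tested members (rows) in 3 comparisons (panels), ordered by the value in ECM against control. Red points were called at an adjusted p below 0.05. Mmp8, Timp1, Adamts1 and Adamts9 lie at the top with log2 fold changes of 4.69, 3.34, 2.93 and 2.76, and Mmp8, Adamts1 and Adamts9 are also called in treated ECM against ECM, with negative values.

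Among the inhibitors, Timp1 rose in ECM brains and Timp3 fell in treated ECM relative to ECM brains. Timp1, the secreted inhibitor that is induced in many injured tissues (chrX:20870166-20874735), was counted at 0.27, 0.21, 1.13 and 1.19 CPM in treated ECM, 2.53, 5.87, 0.66 and 2.51 CPM in ECM and 0.33, 0.39, 0.23 and 0.14 CPM in control brains. All ECM libraries were above all control libraries, ECM 2 was the highest, and ECM 3 lay within the range of the treated ECM libraries. Timp1 passed the filter on low counts through 3 ECM, 2 treated ECM and 0 control libraries. A difference from control was thus built in part into its being tested. The log2 fold change in ECM against control was 3.34 ± 0.71, a 10.1-fold rise (adjusted p = 0.00755). Between treated ECM and ECM brains it was -2.04 ± 0.64 (adjusted p = 0.0636), which missed the threshold, and without the 3 libraries apart it was -1.85 (adjusted p = 0.0467). The gene lies inside Syn1, a neuronal gene at 485 ± 41.1, 474 ± 82.8 and 510 ± 73.6 CPM in treated ECM, ECM and control brains, which was called in no comparison. The exons of the pair do not overlap, but reads from introns of Syn1 could not be separated by strand.

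Timp3, which stays bound to the matrix and is the main natural inhibitor of Adam17 and of Adamts enzymes (chr10:86300372-86349506), stood at 138, 149, 169 and 164 CPM in treated ECM, 267, 322, 297 and 209 CPM in ECM and 149, 180, 161 and 259 CPM in control brains. Every treated ECM library was below every ECM library, while the control library at 259 CPM, control 4, fell among the ECM ones. The level in treated ECM against ECM brains fell by 0.82 on the log2 scale (SE 0.19, adjusted p = 0.0207), and the call was lost on leaving out treated ECM 1, 2 or 4, with an adjusted p of up to 0.0735. In ECM against control the log2 fold change was 0.55 ± 0.19 (adjusted p = 0.0947), and without the 3 libraries apart it was 0.54 (adjusted p = 0.0167). Timp3 lies inside Syn3 and 21.28% of its exon bases are shared with that gene, which stood at 13.8 ± 1.15, 15.1 ± 7.85 and 17.3 ± 2.30 CPM in the 3 groups and was called in no comparison.

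Timp2, which both inhibits Mmps and helps Mmp14 to activate Mmp2, had 290.5, 411, 444 and 399 CPM in treated ECM, 516, 262, 527 and 384 CPM in ECM and 408, 397, 315 and 442 CPM in control brains. The groups overlapped fully, with log2 fold changes of 0.11 ± 0.22 in ECM against control (adjusted p = 0.825) and -0.13 ± 0.22 in treated ECM against ECM (adjusted p = 0.737). Timp4, which is found mainly in brain and heart, stood at 92.1, 69.6, 47.4 and 90.4 CPM in treated ECM, 73.3, 256, 64.5 and 123 CPM in ECM and 71.4, 92.5, 83.8 and 30.7 CPM in control brains. Its highest value was in ECM 2 and its lowest in control 4, which are both libraries that stood apart. The log2 fold change in ECM against control was 0.89 ± 0.43 (adjusted p = 0.24), and without the libraries apart it was 0.26 (adjusted p = 0.564).

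Adamts1 showed the smallest adjusted p of all members and was the only one called in all 3 comparisons. It is a secreted protease that cuts versican and aggrecan and binds vascular endothelial growth factor (chr16:85793827-85803113). Its levels were 24.8, 41.8, 62.9 and 54 CPM in treated ECM, 121, 123, 109 and 151 CPM in ECM and 17.9, 19.8, 16.7 and 11.5 CPM in control brains. The groups did not overlap, and the treated ECM libraries lay between the ECM and the control libraries. The level was 7.65-fold higher in ECM than in control brains (log2 fold change 2.93 ± 0.27, adjusted p = 1.01e-05). It was lower in treated ECM than in ECM brains (log2 fold change -1.46 ± 0.26, adjusted p = 0.0048) and remained 2.78-fold higher in treated ECM than in control brains (1.48 ± 0.26, adjusted p = 0.00595). All 3 calls held when any of the 12 libraries was left out.

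Adamts9, a versican-cutting relative that also acts in ciliogenesis (chr6:92772699-92943492), moved in the same order. It had 3.35, 8.01, 12.5 and 10.6 CPM in treated ECM, 34.4, 18, 36.6 and 23.8 CPM in ECM and 4.60, 5.26, 2.44 and 4.22 CPM in control brains. All ECM libraries were above all others, and treated ECM 1 was within the control range while the other treated libraries were above it. The rise in ECM against control was 6.79-fold (log2 fold change 2.76 ± 0.39, adjusted p = 0.00031). Treated ECM against ECM gave a log2 fold change of -1.71 ± 0.37 (adjusted p = 0.0137), and leaving out treated ECM 2 moved the adjusted p to 0.051. The value was 1.05 ± 0.38 in treated ECM against control (adjusted p = 0.299). An antisense partner, A730049H05Rik, shares 9.18% of the exon bases of Adamts9, and its reads were not separated by strand here. The same limit holds for other members with opposite-strand partners. Among them are Adam19 (8.25% with Gm16033 and 6.75% with Gm16034), Mmp24 (13.6% with BC029722) and Mmp19 (22.33% with Tmem198b).

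The other Adamts genes of interest for brain matrix and clotting did not pass. Adamts4, the aggrecanase most abundant in brain, had 52.1, 46.4, 41.0 and 55.2 CPM in treated ECM, 27.9, 21.6, 18.8 and 45.9 CPM in ECM and 43.0, 59.6, 42.0 and 19.8 CPM in control brains. Of the ECM libraries, 3 were below every treated library, ECM 4 was not, and control 4 was the lowest control. The log2 fold changes were -0.52 ± 0.32 in ECM against control (adjusted p = 0.375) and 0.77 ± 0.32 in treated ECM against ECM (adjusted p = 0.148); without ECM 4 the second passed, at an adjusted p of 0.0346. Adamts5, the second major aggrecanase, had 5.33, 3.34, 2.85 and 3.51 CPM in treated ECM, 5.37, 3.59, 4.98 and 3.53 CPM in ECM and 4.88, 4.48, 5.49 and 8.59 CPM in control brains. The groups overlapped, with a log2 fold change of -0.43 ± 0.28 in ECM against control (adjusted p = 0.421) and -0.21 ± 0.28 in treated ECM against ECM (adjusted p = 0.668).

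Adamts13, which trims von Willebrand factor and so limits platelet strings on endothelium, is made mainly in liver and was rare here. It had 1.21, 1.04 and 1.66 CPM in the 3 treated ECM libraries with usable values, 1.74, 0.41, 0.58 and 1.39 CPM in ECM and 0.50, 0.32, 0.84 and 0.29 CPM in control brains. The treated libraries were all above the control ones, and ECM libraries spread over both. In this fit of 11 libraries the log2 fold change was 1.42 ± 0.53 in treated ECM against control (adjusted p = 0.338) and 1.097 ± 0.51 in ECM against control (adjusted p = 0.224). Without the libraries that stood apart, the value in ECM against control was 1.499 (adjusted p = 0.0398). Adamts14, a procollagen processing enzyme, had 0.55, 0.21 and 0.53 CPM in treated ECM, 1.97, 0.33, 1.83 and 1.98 CPM in ECM and 0.61, 0.26, 0.53 and 0 CPM in control brains. ECM 2 fell within the control range and the other 3 ECM libraries were above it, with a log2 fold change of 2.08 ± 0.68 in ECM against control (adjusted p = 0.0793). Adamts14 passed the filter on low counts through ECM libraries alone.

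**Figure D4:**
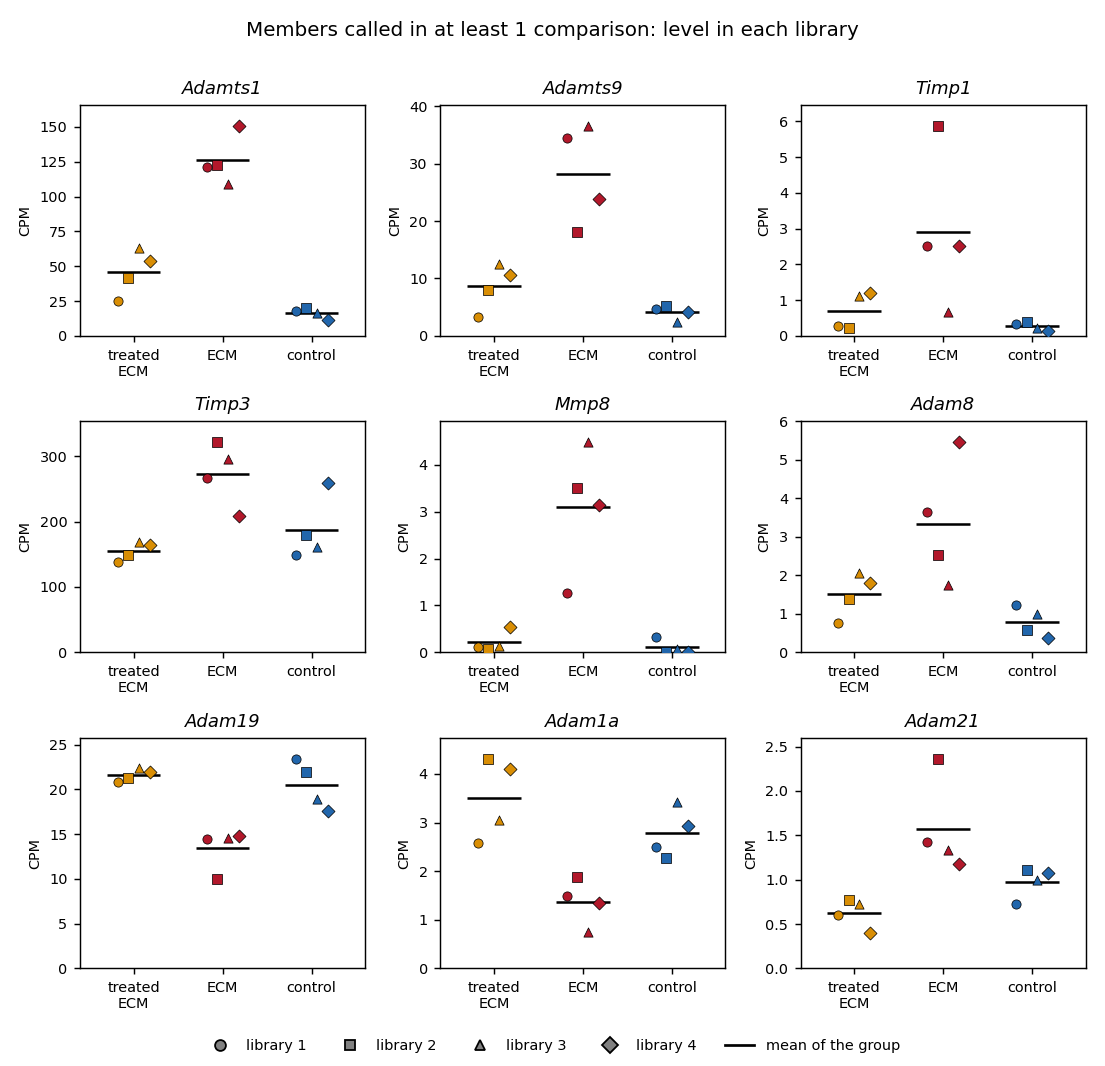
Level in CPM of the 9 members called in at least 1 comparison, in each library of treated ECM, ECM and control brains (4 libraries each, marker shape for the library number, line for the mean). Adamts1 shows 3 groups with no overlap, with means of 45.9, 126 and 16.5 CPM in treated ECM, ECM and control brains. For Adam19 and Adam1a the ECM libraries lie below all others.

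Of the 13 Mmp members, edgeR called Mmp8 alone, and DESeq2 called Mmp17, Mmp19, Mmp24 and Mmp25 as well. By edgeR this is 7.69% higher in ECM against control, against 7.1% of all genes. In treated ECM against ECM it is 7.69% lower, against 5.19% of all genes. DESeq2 called more of all genes too, with 1401 higher in ECM against control and 800 higher in treated ECM against ECM, where edgeR called 1036 and 463. Mmp8 is a collagenase stored in the granules of neutrophils and also made by other cells on stimulation (chr9:7558456-7568485). Its reads were 2, 1, 2 and 8 in treated ECM, 16, 43, 54 and 59 in ECM and 6, 0, 1 and 0 in control libraries. In CPM this was 0.11, 0.070, 0.13 and 0.53 in treated ECM, 1.26, 3.51, 4.49 and 3.16 in ECM and 0.33, 0, 0.076 and 0 in control brains. Every ECM library was above every other library, while treated ECM and control libraries overlapped. The log2 fold change was 4.69 ± 0.78 in ECM against control (adjusted p = 0.00136) and -3.84 ± 0.72 in treated ECM against ECM (adjusted p = 0.00672). Against control, treated ECM brains gave 0.84 ± 0.97 (adjusted p = 0.694). Leaving out single libraries and the other settings moved the first value between 3.86 and 6.59, and the call held in each. Mmp8 passed the filter on low counts through ECM libraries alone, so a difference was built into its being tested.

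Markers of neutrophils were low in all groups, and the 11 listed genes summed to 6.86 to 9.20 CPM in treated ECM, 8.76 to 14.5 CPM in ECM and 3.22 to 5.72 CPM in control brains. Ly6g, which defines mouse neutrophils, had 0 reads in every group, Elane had 0 in treated ECM and ECM brains, and Ngp had 0 in control brains. Of the 11 genes, 3 were tested. In ECM against control 2 were called higher (66.7%, against 7.1% of all genes), as in treated ECM against control (66.7%, against 1.98%). In treated ECM against ECM 0 were called in either direction, also by DESeq2. Over all genes 3.17% were higher and 5.19% lower there. The median log2 fold change of the 3 genes was -0.28 in that comparison. S100a8, a calprotectin subunit of neutrophils and monocytes, was called higher in ECM than in control brains, at 1.80 ± 0.57 CPM in ECM against 0.11 ± 0.10 CPM in control brains. S100a8 also rose in treated ECM relative to control brains, at 1.06 ± 0.20 CPM in treated ECM (SD, n = 4). The part of these cells in the Mmp8 level was not tested. In bulk tissue, more cells of a type and more RNA per cell cannot be told apart.

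The gelatinases and their activator were not called. Mmp9, studied widely in barrier breakdown, had 1.43, 1.53, 1.39 and 2.78 CPM in treated ECM, 3.08, 2.69, 2.16 and 2.83 CPM in ECM and 1.497, 2.27, 2.52 and 0.86 CPM in control brains. The groups overlapped, treated ECM 4 stood above the other treated libraries, and the log2 fold change was 0.59 ± 0.35 in ECM against control (adjusted p = 0.363) and -0.59 ± 0.35 in treated ECM against ECM (adjusted p = 0.302). Mmp2, the second gelatinase, had 3.07, 3.83, 1.99 and 3.38 CPM in treated ECM, 1.105, 2.36, 2.08 and 2.57 CPM in ECM and 3.27, 4.03, 3.74 and 1.86 CPM in control brains. Its ECM libraries were mostly lower than the rest but overlapped them, with a log2 fold change of -0.66 ± 0.33 in ECM against control (adjusted p = 0.268). Mmp14, the membrane-bound activator of Mmp2, had 12.8, 12.9, 10.4 and 11.5 CPM in treated ECM, 15.4, 6.28, 12.2 and 17.9 CPM in ECM and 11, 10.1, 9.84 and 5.799 CPM in control brains. The lowest values were those of ECM 2 and control 4. Over all libraries the log2 fold change in ECM against control was 0.50 ± 0.29 (adjusted p = 0.35). Without the 3 libraries apart it was 0.69 (adjusted p = 0.0109), and Mmp14 was then also lower in treated ECM than in ECM brains (log2 fold change -0.49, adjusted p = 0.0438).

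Some inducible Mmps fell below the minimum level. Mmp3 or stromelysin-1, whose promoter with its AP-1 letters is printed above, had no read in the treated ECM or the control libraries and 4, 6, 3 and 1 reads in the ECM libraries. Reads were thus seen in each ECM library and in no other. Summed over the group, ECM brains had 0.25 CPM. This is 5.07-fold the level that 3 reads over the group would give in control brains, and 5.26-fold that in treated ECM brains. Those 3 reads allow for counting error in the groups without reads. Counting error of the 14 ECM reads and the spread between libraries are not covered. Mmp13, a collagenase, had 3, 16 and 1 reads in treated ECM, ECM and control brains, and Mmp12, the macrophage elastase, had 2, 3 and 3. These genes were too rare for the test, and Mmp10 and Mmp7 had no reads at all. Mmp1a and Mmp1b also had no reads.

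Membrane-linked Mmps of high GC content showed the spread between libraries most clearly. Mmp17, a GPI-anchored Mmp of neurons, had 177, 184, 225 and 156 CPM in treated ECM, 121, 42.2, 73.1 and 123 CPM in ECM and 183, 123, 137 and 74.8 CPM in control brains. Treated ECM libraries were all above ECM libraries, ECM 2 was lowest, and control 4 was the lowest of its group. The log2 fold change in treated ECM against ECM was 1.04 ± 0.32 (adjusted p = 0.0633), and without the libraries apart it was 0.59 (adjusted p = 0.0456). Mmp24, a membrane-type Mmp of neurons, averaged 88.5 ± 26.8 CPM in treated ECM, 37.2 ± 18.6 CPM in ECM and 78.2 ± 38.0 CPM in control brains (SD, n = 4 each), with edgeR adjusted p-values of 0.0932 in treated ECM against ECM and 0.156 in ECM against control. DESeq2 called both Mmp17 and Mmp24 higher in treated ECM than in ECM brains. Mmp15, a further membrane-type Mmp, averaged 30.7 ± 1.51, 15.4 ± 8.30 and 22.1 ± 10.02 CPM in the same order and was not called. Mmp25, an Mmp of leukocytes, averaged 0.37 ± 0.27 CPM in treated ECM, 1.23 ± 0.42 CPM in ECM and 0.33 ± 0.29 CPM in control brains. Its ECM libraries were above all others, and its adjusted p was 0.0793 in ECM against control and 0.0849 in treated ECM against ECM. Mmp19, expressed by myeloid and vascular cells, averaged 1.22 ± 0.43, 2.13 ± 0.58 and 0.99 ± 0.21 CPM, with all ECM libraries above all control libraries and an edgeR adjusted p of 0.0616 in that comparison, where DESeq2 called both Mmp19 and Mmp25 higher.

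Among the Adams, Adam8 rose in ECM brains and Adam19 fell. Adam8, an active sheddase of leukocytes and activated glia (chr7:139978932-139992562), had 0.77, 1.39, 2.06 and 1.79 CPM in treated ECM, 3.63, 2.53, 1.74 and 5.45 CPM in ECM and 1.22, 0.58, 0.99 and 0.36 CPM in control brains. The ECM libraries were above all control libraries, and ECM 3 fell within the treated range. The rise in ECM against control was 4.20-fold (log2 fold change 2.07 ± 0.46, adjusted p = 0.0107). Treated ECM against ECM gave -1.17 ± 0.44 (adjusted p = 0.114), and without the libraries apart it was -1.62 (adjusted p = 0.0194). Markers of monocytes summed to 13.6 to 32.4 CPM in treated ECM, 106 to 270.4 CPM in ECM and 0.53 to 1.36 CPM in control brains, and all 7 were called higher in ECM than in control brains and lower in treated ECM than in ECM brains. Their part in the Adam8 level was not tested.

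Adam19, a sheddase of neuregulin-1 in neurons (chr11:46055992-46147343), had 20.8, 21.2, 22.4 and 22 CPM in treated ECM, 14.4, 9.95, 14.5 and 14.8 CPM in ECM and 23.5, 21.9, 18.9 and 17.6 CPM in control brains. Every ECM library was below every other library, and treated ECM and control libraries overlapped. Against control, the ECM level fell by 0.61 on the log2 scale (SE 0.17, adjusted p = 0.0336). It was higher in treated ECM than in ECM brains (log2 fold change 0.69 ± 0.17, adjusted p = 0.0249). The first call was lost in 8 of the 12 omissions of a single library, namely each treated ECM library, ECM 1 and control 1, 2 and 3, with adjusted p-values of up to 0.106. The second was lost in 4, each time a treated ECM library was left out, with values of up to 0.0731.

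Adam1a and Adam21 differed between treated ECM and ECM brains. Adam1a, known in mice as a fertilin alpha subunit of sperm (chr5:121518576-121545482), had 2.58, 4.32, 3.05 and 4.10 CPM in treated ECM, 1.499, 1.88, 0.75 and 1.34 CPM in ECM and 2.495, 2.27, 3.43 and 2.94 CPM in control brains. All ECM libraries lay below all others. The level was 2.56-fold higher in treated ECM than in ECM brains (log2 fold change 1.36 ± 0.31, adjusted p = 0.018), and the call was lost on leaving out treated ECM 2 or treated ECM 4, with an adjusted p of up to 0.0649. In ECM against control the log2 fold change was -1.02 ± 0.31 (adjusted p = 0.0531). Of its exon bases 63.65% are shared with Gm42878 and 24.04% with Mapkapk5 on the same strand, so which transcript these reads came from is uncertain.

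Markers of striatum and choroid plexus are set beside Adam19, Adam1a, Mmp17 and Mmp24, whose mean levels were also lowest in ECM brains. Those of striatum summed to 648 to 843 CPM in treated ECM, 202 to 655 CPM in ECM and 492 to 911 CPM in control brains. Of the 6 genes, 4 were called lower in ECM than in control brains (Drd1, Drd2, Rgs9 and Pde10a) and 3 higher in treated ECM than in ECM brains (Drd2, Adora2a and Pde10a), with median log2 fold changes of -1.18 and 1.02. Drd1 and Drd2, the main dopamine receptors of striatal neurons, mark its output cells. Markers of choroid plexus spread more widely, at 76.9 to 899 CPM in treated ECM, 12.9 to 400.2 CPM in ECM and 66.1 to 638 CPM in control brains, with medians of -1.24 and 1.28 in the same comparisons. Of these 6 genes Kcnj13 alone was called by edgeR, lower in ECM than in control brains. No marker of either list was at 0 in any group, and the part of brain regions in the levels of these members was not tested.

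Adam21, another Adam known mainly from testis (chr12:81558584-81568474), had 0.60, 0.77, 0.73 and 0.40 CPM in treated ECM, 1.42, 2.36, 1.33 and 1.18 CPM in ECM and 0.72, 1.105, 0.99 and 1.07 CPM in control brains. Every ECM library was above every other, with ECM 2 the highest. The level in treated ECM against ECM brains fell by 1.32 on the log2 scale (SE 0.35, adjusted p = 0.0347). The call was lost in 7 of 12 omissions, those of each treated ECM library, ECM 1, ECM 2 and control 3, and also without the 3 libraries apart, where the adjusted p was 0.0882.

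The major sheddases were not called over all libraries. Adam10 had 103, 113, 101 and 102 CPM in treated ECM, 86.7, 110.2, 126 and 91.6 CPM in ECM and 109, 107, 112 and 156 CPM in control brains. The highest value was that of control 4, and the log2 fold changes were -0.23 ± 0.16 in ECM against control (adjusted p = 0.467) and 0.02 ± 0.16 in treated ECM against ECM (adjusted p = 0.957). Adam17, the converting enzyme of tumour necrosis factor, had 22.3, 22.2, 23.1 and 24.2 CPM in treated ECM, 19.1, 22, 28.2 and 20.1 CPM in ECM and 23.8, 25.0, 26.9 and 28.8 CPM in control brains. ECM 3 was the highest of its group and the groups overlapped, with log2 fold changes of -0.22 ± 0.15 in ECM against control (adjusted p = 0.436) and 0.04 ± 0.15 in treated ECM against ECM (adjusted p = 0.901). Without the libraries apart, both passed in ECM against control with small falls, by 0.29 for Adam10 (adjusted p = 0.0435) and by 0.36 for Adam17 (adjusted p = 0.0428) on the log2 scale. The catalytically inactive Adam22 averaged 254 ± 10.4 CPM in treated ECM, 277 ± 56.2 CPM in ECM and 321 ± 48.9 CPM in control brains. Adam23 averaged 162 ± 11.4, 179 ± 27.9 and 210.2 ± 9.12 CPM, with all treated ECM libraries below all control libraries and an adjusted p of 0.314 in that comparison. Adam15, an adhesion and sheddase protein of endothelium, averaged 91.2 ± 8.79, 106 ± 38.8 and 65.1 ± 21.9 CPM, and 20.55% of its exon bases overlap an antisense gene. Adam15 was not called over all libraries (adjusted p = 0.157 in ECM against control) but was 1.85-fold higher without the libraries apart (adjusted p = 0.00061).

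Among the members, 6 had too few reads to be tested, namely Adam32, Adamts12, Adamts7, Adam5, Adam4 and Adam7. The highest count of any of them in one library was 16 reads, of Adamts12 in control 4. Members not named above were tested and not called, and none of the members was at 0 in all libraries.

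Endothelial markers were higher in sum in every ECM library than in any other library. The list summed to 307 to 389 CPM in treated ECM, 439 to 613 CPM in ECM and 253 to 314 CPM in control brains. Of its 7 genes, 4 were called higher in ECM than in control brains and 2 lower. Cdh5, the junction protein VE-cadherin, was 3.37-fold higher, while Slco1a4, a transporter of brain endothelium, fell by 0.84 on the log2 scale. The astrocyte list summed to 3595 to 4406 CPM in treated ECM, 4556 to 5839 CPM in ECM and 4270 to 5932 CPM in control brains, so that ECM and control brains overlapped. Of its 6 genes, Gfap and Aldh1l1 were called higher in ECM than in control brains and lower in treated ECM than in ECM brains. The other 4 were not called, 1 of them was lower in ECM than in control brains at an unadjusted p below 0.05, and the median log2 fold change of the list was 0.04 in ECM against control. Markers of fibroblasts and meninges overlapped between groups, at 113 to 175 CPM in treated ECM, 142 to 233 CPM in ECM and 131 to 181 CPM in control brains. No defining marker of these 3 lists was at 0 in any group, and the part of these cells in the levels of Adamts1, Adamts9 and Timp1 was not tested.

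**Figure D5:**
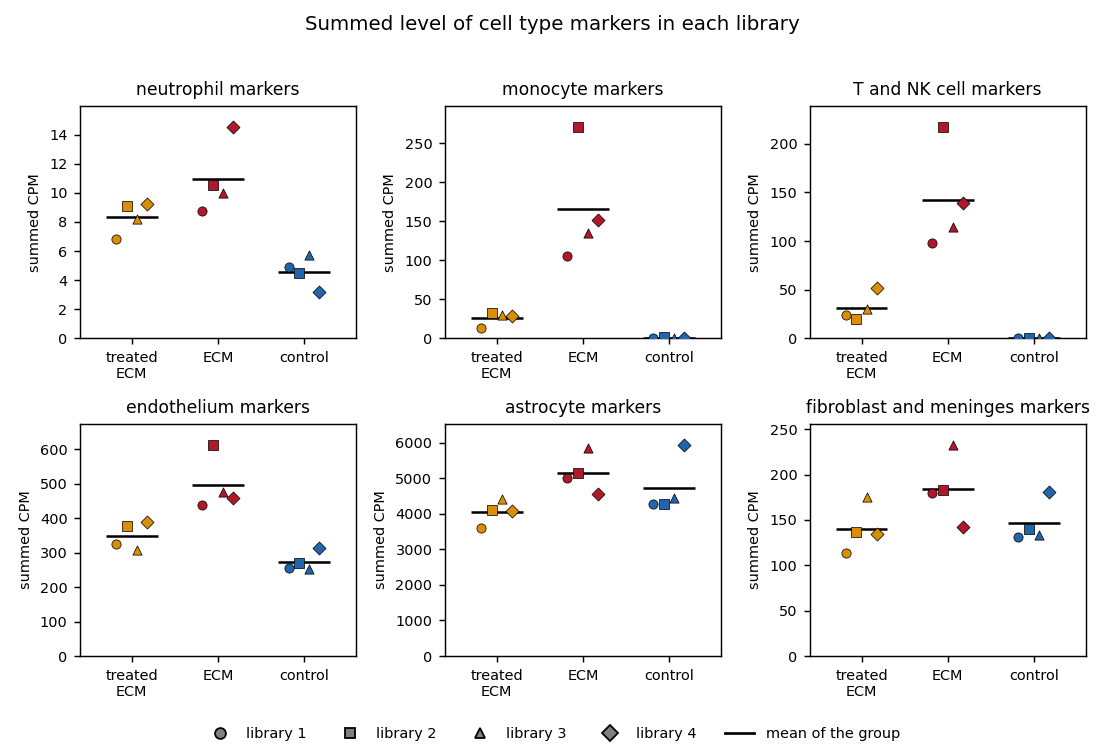
Summed level in CPM of cell type marker genes in each library of treated ECM, ECM and control brains (4 libraries each, marker shape for the library number, line for the mean). Monocyte and T and NK cell markers are high in ECM, intermediate in treated ECM and near 0 in control brains, whereas neutrophil markers stay below 15 CPM in every library.

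Proteins that activate or restrain these enzymes changed in a few cases. Of 22 tested genes in this list, 4 were called higher and 0 lower in ECM against control, 1 higher and 4 lower in treated ECM against ECM, and 1 higher and 0 lower in treated ECM against control. The shares higher were 18.2%, 4.55% and 4.55% in these comparisons, against 7.1%, 3.17% and 1.98% of all genes, and 18.2% were lower in treated ECM against ECM, against 5.19% of all genes. For the counts of 0, an unadjusted p below 0.05 and DESeq2 also gave 0. Over all genes, 3.14% were lower in ECM against control and 0.0548% in treated ECM against control. Medians of log2 fold change were 0.05, 0.03 and 0.12, against -0.02, 0.00 and 0.00 over all genes. Plaur, the receptor that holds urokinase at the cell surface, averaged 7.06 ± 3.63 CPM in treated ECM, 22.2 ± 3.60 CPM in ECM and 0.55 ± 0.41 CPM in control brains, and was called in all 3 comparisons. Plat, tissue plasminogen activator, averaged 40.8 ± 2.23 CPM in treated ECM, 114 ± 12.4 CPM in ECM and 39.03 ± 2.74 CPM in control brains. A2m, a broad protease trap, averaged 19.5 ± 6.17 CPM in treated ECM, 64.3 ± 21.9 CPM in ECM and 22.4 ± 10.1 CPM in control brains. These 3 genes were higher in ECM than in control brains and lower in treated ECM than in ECM brains by the test. Tspan14, a tetraspanin that escorts Adam10 to the cell surface, was the one called higher in treated ECM than in ECM brains, at 49.1 ± 3.01 CPM in treated ECM and 26.8 ± 6.31 CPM in ECM brains.

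Brain matrix proteins that these enzymes cut were mostly not called. Of 16 tested, 0 were called higher and 1 lower in ECM against control, and 0 in either direction in the other comparisons. Over all genes, 7.1% were higher in ECM against control, and 3.17% were higher and 5.19% lower in treated ECM against ECM. In treated ECM against control, 1.98% were higher and 0.0548% lower. At such shares a list of 16 would hold few calls, so the counts of 0 do not set it apart. The medians were -0.06 in ECM against control, 0.18 in treated ECM against ECM and 0.11 in treated ECM against control. The one called, 6.25% of the list against 3.14% of all genes, was Tnc, tenascin-C, at 5.12 ± 1.27 CPM in ECM and 11.4 ± 2.70 CPM in control brains (adjusted p = 0.0149). At an unadjusted p below 0.05, 4 were higher and 1 lower in treated ECM against ECM, and DESeq2 called 1 in each direction. In treated ECM against control, 1 was higher at an unadjusted p below 0.05 and DESeq2 called 0, and in ECM against control 0 were higher by either measure. Versican, aggrecan, brevican and neurocan were among those not called.

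Several shed proteins and partners of Adams were called. Of 18 tested, 7 were called higher and 0 lower in ECM against control, 0 higher and 2 lower in treated ECM against ECM, and 1 higher and 0 lower in treated ECM against control, with medians of 0.28, -0.35 and 0.21. The shares were 38.9% higher in ECM against control, against 7.1% of all genes, 11.1% lower in treated ECM against ECM, against 5.19%, and 5.56% higher in treated ECM against control, against 1.98%. Where the list had 0, 3.14% of all genes were lower in ECM against control and 3.17% higher in treated ECM against ECM. In treated ECM against control, 0.0548% of all genes were lower. At an unadjusted p below 0.05, 1 was lower in ECM against control, 1 higher in treated ECM against ECM and 0 lower in treated ECM against control, where DESeq2 called 0, 1 and 0. Tnf, the cytokine released by Adam17, had no read in control brains and averaged 0.46 ± 0.43 CPM in treated ECM and 1.502 ± 0.64 CPM in ECM brains. Cd44, the hyaluronan receptor, averaged 8.69 ± 1.89 CPM in treated ECM, 23.6 ± 8.74 CPM in ECM and 5.05 ± 1.002 CPM in control brains, and was called lower in treated ECM than in ECM brains. Tnfrsf1b, tumour necrosis factor receptor 2, was 4.21-fold higher in ECM than in control brains, at 19.3 ± 5.006 CPM in ECM and 4.57 ± 2.22 CPM in control brains. Summed T and NK cell markers were 19.7 to 51.5 CPM in treated ECM, 98.3 to 217 CPM in ECM and 0.17 to 0.84 CPM in control brains, and their part in these levels was not tested. Of 13 other zinc metalloproteinases and Adamts-like genes tested, edgeR called Tll1, a tolloid-like procollagen protease, lower in ECM than in control brains (log2 fold change -1.21 ± 0.36, adjusted p = 0.0471). This is 7.69% of the list, against 3.14% of all genes; DESeq2 called 2 lower in this comparison, and 3 were lower at an unadjusted p below 0.05. The other comparisons had no call by edgeR: 2 genes were higher at an unadjusted p below 0.05 in treated ECM against ECM, 1 was higher in treated ECM against control, and DESeq2 called 0 in both. Over all genes, 3.17% were higher and 5.19% lower in treated ECM against ECM. In treated ECM against control, 1.98% were higher and 0.0548% lower.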

How the data were processed

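Per the labels' protocols, brains were kept in RNAlater, Trizol was used for RNA and a NEBNext Ultra kit for the libraries. Per the submitters' processing notes, Trimmomatic, FastQC, STAR and HTSeq were used on mm10, with versions and annotation not given in the sources used here. One deposited table holds one read count per gene and library, as the authors made it, with no scaling. In 2212 genes with names of 8 or more characters the columns were displaced and were put back. In these, treated ECM 4 differed from the authors' deposited comparison tables in 32 of 33 values against control and 77 of 85 against ECM. The other libraries differed in 0, so treated ECM 4 was left out for these genes, among them Adamts10 and Adamts12 to Adamts20. Of 21983 names, 50 were unusable.

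Counts were scaled by TMM, filtered by filterByExpr and tested with edgeR 4.0.16 (quasi-likelihood, 3 group means, R 4.3.3), checked on simulated data. P-values of all 14600 genes were adjusted together. CPM divides a count by the reads of short-named genes and the TMM factor. Positions, exon lengths and GC content come from GENCODE M21 (GRCm38). Per-library values are given for members called anywhere and for a panel of 18 genes. Other members with values were picked after their values were seen. Members and lists were chosen with earlier results of these data known. Some called genes of the lists are counted but not reported here by name. Alternatives were DESeq2 1.42.0, other size factors, no filter, 2-group fits, a replicate block, omissions of libraries, and a correction for GC content chosen after seeing the data.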

Additional observations from a re-analysis of the deposited data

Results flagged for a closer look

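Of 56 groups of 4 libraries examined for the named genes, 5 had a library far from the other 3 (chance gives about 1 in 20). Adam10 had 113 CPM in treated ECM 2, above the other treated libraries, and 156 CPM in control 4, above the other controls. Adam19 had 9.95 CPM in ECM 2, below the other ECM libraries. Mmp8 had 0.529 CPM in treated ECM 4 and Mmp9 had 2.78 CPM in the same library, both above the other treated libraries. Adam10 in control 4 and Adam19 in ECM 2 come from libraries that stood apart in GC content and mitochondrial reads, and the part of these in both values was not tested.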

How the results depend on the processing

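Calls of Adamts1, Adamts9, Mmp8, Timp1 and Adam8 in ECM against control, of Adamts1 and Mmp8 in treated ECM against ECM, and of Adamts1 in treated ECM against control were kept in all 12 omissions of a library and in every other setting that tested them (Timp1 was not tested in the 2-group fit). Mmp8 passed the filter on low counts through ECM libraries alone, and its calls carry that limit. Timp1 passed with 0 control libraries at the level of the filter, and its call carries the limit in part. No named value changed sign where it was called in the main fit or in the alternative. Sign changes of values called in neither were not counted. Called members, 5 higher and 1 lower in ECM against control, were 8 and 2 with DESeq2, 11 and 4 without control 4, ECM 2 and ECM 3, and 10 and 3 with GC content corrected, an alternative chosen after seeing the data. Over all genes, 1036 higher became 1401, 1526 and 1496 in the same order, and 459 lower became 670, 1216 and 831. The 1 lower member was lost, leaving 0, with the 2 groups alone and with the replicate block. In treated ECM against ECM, 2 higher became 4 with DESeq2 and 0 with the replicate block, and 5 lower became 10 without the 3 libraries, 10 with GC content corrected and 2 with the block. In treated ECM against control, 1 was lower without the 3 libraries. Replicate numbers did not pair the libraries: same-numbered libraries correlated at -0.61 to 0.30, and 1 of 12 matched its own number best. Omissions gave 0 to 2 lower members in ECM against control, 0 to 5 higher and 2 to 7 lower in treated ECM against ECM, and 2 higher in treated ECM against control without treated ECM 1. Over all genes, lower calls in ECM against control were 148 with 2 groups, 213 with the block, 1216 without the 3 libraries, 831 with GC content corrected and 250 to 550 in the omissions. In treated ECM against ECM, higher calls were 463 (main fit), 800 (DESeq2), 167 (block), 1039 (3 libraries out), 848 (GC content) and 184 to 806 (omissions). Lower calls were 758, 1348, 374, 1233, 1297 and 366 to 1301 in the same order. Lower calls in treated ECM against control were 23 (DESeq2), 16 (2 groups), 2 (block), 51 (3 libraries out) and 2 to 13 (omissions). The cause was not tested. At a minimum of 1 CPM, 44 members remained. Genes under about 1 CPM rest on few reads, and small differences in them were not detectable at this depth.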
